A study of Mus musculus with 6 samples.

Results

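Coregulator genes of nuclear receptors, 8 in all, were followed in mouse retinal pigment epithelium (RPE) kept in primary culture, with and without added photoreceptor outer segments (POS). The RPE is the sheet of pigmented cells behind the retina that takes up the membranes shed by photoreceptors. The members were named by gene symbol (Nrip1, Pnrc1, Pnrc2, Ncoa1, Ncoa2, Ncoa3, Ncoa4 and Ncor1), and all 8 were among the 12556 genes measured. Nrip1 and Pnrc1 were chosen by their measured fold changes in this same comparison, higher and lower in challenged cells, and the other 6 were added as relatives. For that reason the members' values between the groups are a description and carry no test. POS-challenged cultures were given mouse POS for 1.5 h, at some 10 POS to each RPE cell, and then washed, and unchallenged cultures, titled Veh in the labels, received none. Every culture came from C57BL/6J mice of 10 to 12 days and was 5 to 6 days old, on porous inserts (0.4 µm) that held the RPE of about 1 eye each. Each group had 3 libraries of poly(A) RNA, which the labels call biological replicates. The sources used here do not say whether they came from separate litters or days.

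Nuclear receptors are transcription factors that bind small lipophilic ligands such as retinoic acid, thyroid hormone and steroids. They change transcription by recruiting coactivators, which bring histone acetyltransferases to a gene, or corepressors, which bring histone deacetylases. Nrip1 codes for a ligand-dependent corepressor known for restraining oxidative metabolism in fat and muscle, and it is a known retinoic acid-inducible gene. Pnrc1 and Pnrc2 code for small proline-rich coactivators, and the human PNRC2 protein also links the decapping enzyme to nonsense-mediated mRNA decay. Ncoa1, Ncoa2 and Ncoa3 code for the steroid receptor coactivators, Ncoa4 for an androgen receptor coactivator that is also the cargo receptor for ferritin in autophagy, and Ncor1 for the scaffold of the main histone deacetylase corepressor complex. In the RPE, retinoids are handled in bulk for the visual cycle, and receptors for retinoic acid and for fatty acids are well known there.

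The reads summed over all genes of a library came to between 24869273 and 30420028. The members had between 302 reads (Ncoa4) and 5803 reads (Ncor1) in a library, so counting error alone amounts to 1.38% of the mean for Ncor1 and 5.25% for Ncoa4. Levels are given as normalized read counts, the authors' read counts divided by a size factor of each library. Defining RPE genes were present, with 14 of the 15 markers listed in the table and Tyr, the tyrosinase gene, at a mean of 21990 in challenged and 21709 in unchallenged cells. Their summed levels ran from 42941 to 64675 in challenged and from 42558 to 57144 in unchallenged libraries. Mitf, Krt8 and Krt18 lay higher in challenged libraries without overlap (log2 fold changes 0.48, 0.32 and 0.26, limma adjusted p = 0.385, 0.416 and 0.395). The groups overlapped for every other RPE marker measured. Fibroblast genes were present too, with all 8 listed in the table and Col1a1 at 35637 and 40819, and their summed levels ran from 59106 to 76879 in challenged and from 66200 to 89751 in unchallenged libraries. These sums consist mostly of 3 collagen genes, and other genes of the list differed between the groups. Pdgfra stood at 1689 ± 478 in challenged and 861 ± 179 in unchallenged cells, and Pdgfrb at 2013 ± 149 and 1580 ± 43.0 (SD, n = 3 each), without overlap of the groups in either gene. Both were higher in the authors' deposited table (adjusted p = 0.00334 and 0.0176), while limma gave adjusted p of 0.252 and 0.240. Dcn stood at 471 ± 29.5 and 1085 ± 717, with overlapping groups. Of 15 photoreceptor markers, Sag and Cdhr1 were measured and the other 13 were not analysed here. Their summed level was 926 to 1538 in challenged and 109 to 153 in unchallenged libraries. Summed levels of 7 macrophage genes were 998 to 1371 and 1176 to 1361, of 4 Müller glia genes 78875 to 108005 and 94132 to 102733, and of 2 endothelial genes 138 to 178 and 106 to 185. The Müller glia sum consisted mostly of Vim, at means of 79537 in challenged and 83531 in unchallenged cells, and included Rlbp1, also an RPE marker. Gfap and Aqp4 of that list were not analysed here. The part of other cell types, or of the added POS, in the values below was not tested. In whole cultures fewer cells of a type and less RNA per cell cannot be told apart.

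Some libraries stood apart from the rest of their group. The summed level of 20 interferon-stimulated genes was 3298, 4330 and 13343 in challenged replicates 1, 2 and 3, and 56705, 4095 and 76970 in unchallenged replicates 1, 2 and 3. The leading principal component of the 6 libraries, with 51.3% of the variance, split the unchallenged group. It placed unchallenged replicates 1 and 3 at 36.8 and 26.2, and unchallenged replicate 2 at -12.1, among the challenged libraries at -26.3 to -6.9. The second component, with 25.9% of the variance, placed challenged replicate 3 at 35.9 and the other libraries between -14.9 and -2.5. That library also held the highest value of 31.0% of all genes, and of 7 of the 8 members, all but Pnrc1. Member values are therefore also given without it where it moved them.

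Nrip1 stood higher in challenged than in unchallenged cells. Its normalized counts were 972, 938 and 1188 in challenged replicates 1, 2 and 3, and 599, 553 and 589 in unchallenged replicates 1, 2 and 3. Every challenged value lay above every unchallenged one, and the gap between the groups was wider than the range within either. The means were 1033 ± 136 in challenged and 580 ± 24.6 in unchallenged cells (SD, n = 3 each), a ratio of 1.78. The log2 fold change, challenged over unchallenged on the log2(value + 1) scale, was 0.82 ± 0.11 (SE). Challenged replicate 3 was the highest, and without it the log2 fold change was 0.72, against 0.79 to 0.89 when any of the other 5 libraries was left out. With unchallenged replicate 2, the library with low interferon genes, as the only unchallenged library it was 0.89.

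Nrip1 (Entrez Gene 268903) lies on the minus strand of chromosome 16, from 76287403 to 76373827 on GRCm38.p6. RefSeq gives it a pair of start sites, and the windows around both are shown because this gene had the largest fold change of the members. Each runs from 250 bases before the start to 50 bases after it. Capitals mark letters that match any of 7 motifs searched on both strands. These were AGGTCA (the nuclear receptor half-site), TGACGTCA (the cAMP response element), TGANTCA (the AP-1 site), CACGTG (an E-box), GGGCGG (the GC box), TATAAA (the TATA box) and CCAAT (the CCAAT box).
Nrip1, chr16:76373778-76374077, minus strand: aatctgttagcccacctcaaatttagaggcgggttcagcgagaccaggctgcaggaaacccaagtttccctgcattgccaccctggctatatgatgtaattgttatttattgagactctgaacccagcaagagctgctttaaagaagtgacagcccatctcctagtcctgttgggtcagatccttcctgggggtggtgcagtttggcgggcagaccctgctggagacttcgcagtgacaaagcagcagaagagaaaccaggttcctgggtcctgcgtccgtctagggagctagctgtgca
Nrip1, chr16:76373000-76373299, minus strand: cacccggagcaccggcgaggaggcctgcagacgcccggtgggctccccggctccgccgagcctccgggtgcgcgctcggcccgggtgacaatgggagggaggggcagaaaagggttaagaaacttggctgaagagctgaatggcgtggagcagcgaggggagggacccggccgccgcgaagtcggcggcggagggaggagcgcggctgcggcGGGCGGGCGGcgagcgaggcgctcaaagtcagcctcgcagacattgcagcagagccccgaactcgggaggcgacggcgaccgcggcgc
The window at the outermost start held none of the 7 motifs and had a GC content of 52.7%, equal to the median of all 32851 windows. The window at the inner start had a GC content of 73.3% and 2 overlapping GC boxes that begin 38 and 34 bases before the start. Of all windows, 35.7% hold the GC box, 16.3% the half-site, 1.79% the cAMP response element, 7.81% the AP-1 site, 7.15% the E-box and 13.6% the TATA box.

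**Figure D1:**
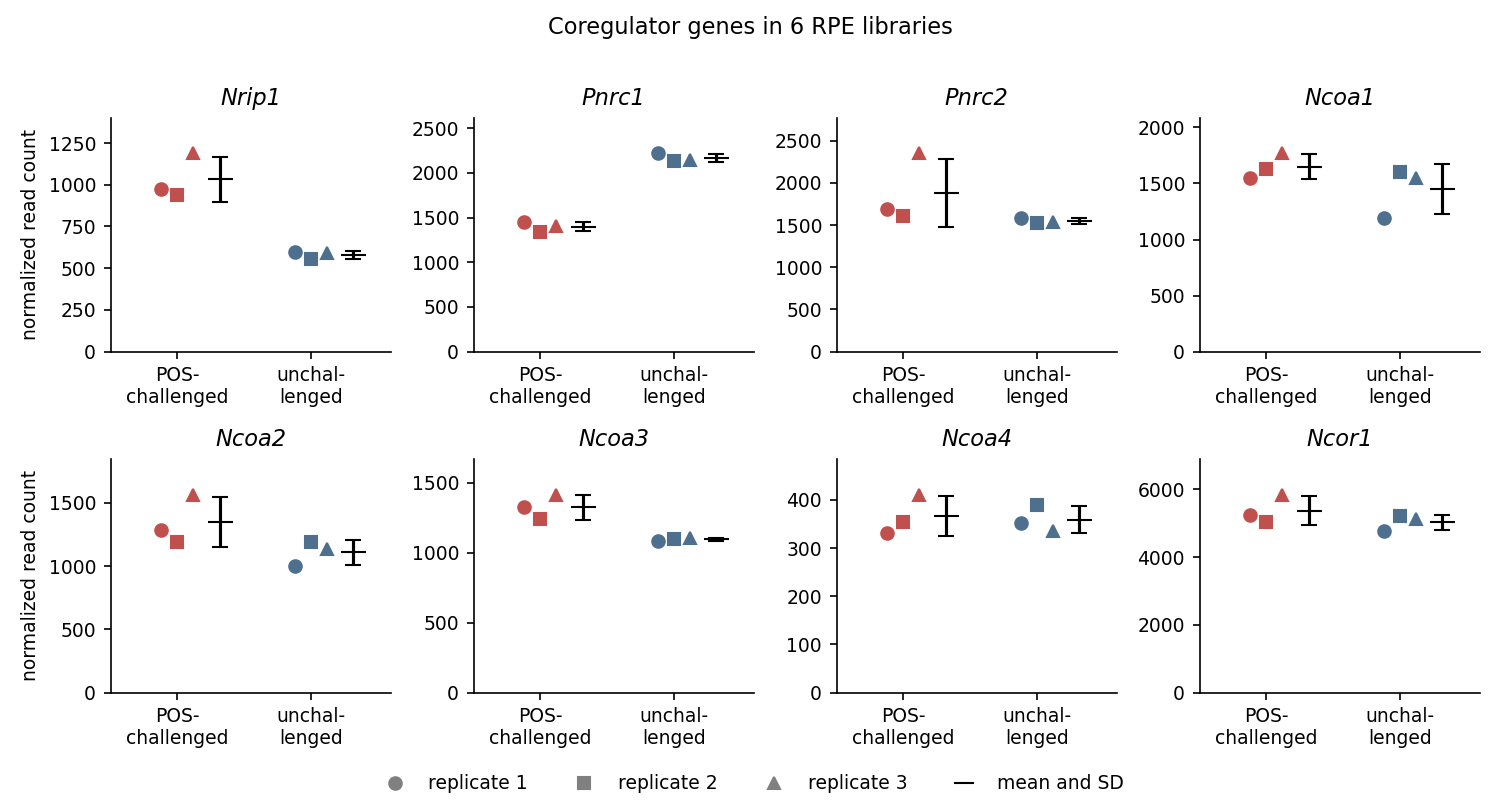
Normalized read counts (vertical axes, from 0) of the 8 coregulator genes in 3 POS-challenged and 3 unchallenged libraries, with symbols for the replicate number and black bars for the mean and SD. Nrip1 at 938 to 1188 in challenged and 553 to 599 in unchallenged libraries, and Pnrc1 at 1344 to 1449 and 2139 to 2218, show the widest gaps between groups.

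Pnrc1 stood lower in challenged cells and varied little within either group. It had 1449, 1344 and 1407 normalized counts in challenged replicates 1, 2 and 3, against 2218, 2139 and 2147 in unchallenged replicates 1, 2 and 3. The highest challenged value lay well below the lowest unchallenged one. The means were 1400 ± 53.3 and 2168 ± 43.3 (SD, n = 3 each), a ratio of 0.646 and a log2 fold change of -0.63 ± 0.06 (SE). The coefficient of variation was 3.8% in challenged and 2.0% in unchallenged libraries, where counting error alone amounts to 2.38%. Pnrc1 was the steadiest of the members when libraries were left out, with log2 fold changes from -0.66 to -0.60.

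Its relative Pnrc2 had a fold change of the opposite sign. Pnrc2 had 1690, 1613 and 2350 normalized counts in challenged replicates 1, 2 and 3, and 1582, 1523 and 1542 in unchallenged replicates 1, 2 and 3. The groups did not overlap, but the lowest challenged value lay only just above the highest unchallenged one, and challenged replicate 3 carried most of the difference. The means were 1884 ± 405 and 1549 ± 30.4 (SD, n = 3 each), with a log2 fold change of 0.26 ± 0.14 (SE) and of 0.09 without challenged replicate 3. Pnrc2 was the most variable member in challenged libraries, with a coefficient of variation of 21.5%, and among the least variable in unchallenged ones, at 1.96%. Counting error alone amounts to 2.41% of its mean.

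Pnrc1 (Entrez Gene 108767) and Pnrc2 (52830) both lie on the minus strand of chromosome 4, from 33245423 to 33248787 and from 135870917 to 135873846. Their start windows, from RefSeq on the same build, are shown together because these related genes had opposite signs.
Pnrc1, chr4:33248738-33249037, minus strand: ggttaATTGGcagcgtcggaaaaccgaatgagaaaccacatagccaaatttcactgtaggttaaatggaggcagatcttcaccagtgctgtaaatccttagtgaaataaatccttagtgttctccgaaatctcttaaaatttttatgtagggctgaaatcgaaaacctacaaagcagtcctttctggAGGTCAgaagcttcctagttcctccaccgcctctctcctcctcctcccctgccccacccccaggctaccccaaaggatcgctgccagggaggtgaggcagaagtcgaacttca
Pnrc2, chr4:135873797-135874096, minus strand: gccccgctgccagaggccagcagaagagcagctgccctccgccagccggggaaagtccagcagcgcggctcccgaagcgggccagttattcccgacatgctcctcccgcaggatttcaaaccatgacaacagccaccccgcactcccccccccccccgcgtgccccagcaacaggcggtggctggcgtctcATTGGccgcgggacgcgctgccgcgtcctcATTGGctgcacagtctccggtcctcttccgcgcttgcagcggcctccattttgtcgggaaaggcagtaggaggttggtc
The Pnrc1 window, with a GC content of 48.0%, held AGGTCA 63 bases before the start and a CCAAT box 245 bases before it. The Pnrc2 window, with 67.7%, held CCAAT boxes 59 and 29 bases before the start and no half-site match. Boxes of that kind (CCAAT) occur in 37.4% of all windows. A CCAAT box on the opposite strand reads ATTGG in the printed one. These matches describe the letters and not sites of binding. The windows of Ncoa1, Ncoa4 and Ncor1 are not shown, and Ncoa2 and Ncoa3 had no entry in the sequence table. An Ncoa4 window also held a match to the half-site, 44 bases before its start.

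Among the steroid receptor coactivators, Ncoa3 showed the clearest separation. It had 1324, 1239 and 1416 normalized counts in challenged replicates 1, 2 and 3, and 1085, 1096 and 1105 in unchallenged replicates 1, 2 and 3. All challenged values lay above all unchallenged ones. The unchallenged libraries differed by 0.893% (coefficient of variation), less than the 2.86% that counting error alone amounts to, so nothing is read from that small spread. The means were 1326 ± 88.5 and 1095 ± 9.78 (SD, n = 3 each), a log2 fold change of 0.27 ± 0.07 (SE), with 0.23 to 0.32 when 1 library was left out. Ncoa3 (chromosome 2, 165992637 to 166073242, plus strand) shares 154 bases with exons of Sulf2 on the opposite strand, which is 2.04% of its exon length. Sulf2 itself stood at 1837, 1788 and 2119 in challenged and at 1556, 1773 and 1718 in unchallenged libraries, and the sources used here do not say whether reads were counted by strand.

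Ncoa2 and Ncoa1 had higher means in challenged cells, but their groups overlapped. Ncoa2 had 1284, 1189 and 1565 normalized counts in challenged replicates 1, 2 and 3, and 1000, 1194 and 1136 in unchallenged replicates 1, 2 and 3. Challenged replicate 2 lay just under unchallenged replicate 2. Its means were 1346 ± 196 and 1110 ± 99.6 (SD, n = 3 each), and the log2 fold change was 0.27 ± 0.12 (SE), and 0.16 without challenged replicate 3. Ncoa1 had 1546, 1630 and 1768 normalized counts in challenged replicates 1, 2 and 3, and 1195, 1606 and 1549 in unchallenged replicates 1, 2 and 3. The low value of unchallenged replicate 1 made most of that difference, since the log2 fold change of 0.19 ± 0.12 (SE) was 0.06 without it. The means of Ncoa1 were 1648 ± 112 and 1450 ± 223 (SD, n = 3 each). Ncoa2 lies on the minus strand of chromosome 1 (13139105 to 13374227) and Ncoa1 on the minus strand of chromosome 12 (4247362 to 4477206), where 68 bases of its exons (0.928%) overlap an antisense transcript, 4921501I09Rik, that was not analysed here.

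Ncoa4, the ferritin cargo receptor, had the fewest reads of the members and showed no separation of the groups. It had 331, 354 and 411 normalized counts in challenged replicates 1, 2 and 3, and 353, 390 and 335 in unchallenged replicates 1, 2 and 3. The means were 366 ± 41.2 and 359 ± 27.8 (SD, n = 3 each), and the log2 fold change was 0.02 ± 0.12 (SE), with -0.07 to 0.09 when 1 library was left out. Ncor1, the corepressor scaffold, was the member with the most reads. It had 5231, 5047 and 5848 normalized counts in challenged replicates 1, 2 and 3, and 4777, 5202 and 5120 in unchallenged replicates 1, 2 and 3. Its groups overlapped, with means of 5375 ± 420 and 5033 ± 225 (SD, n = 3 each) and a log2 fold change of 0.09 ± 0.08 (SE), and 0.03 without challenged replicate 3. Ncoa4 lies on the plus strand of chromosome 14 (32159879 to 32179855) and Ncor1 on the minus strand of chromosome 11 (62315663 to 62457414).

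**Figure D2:**
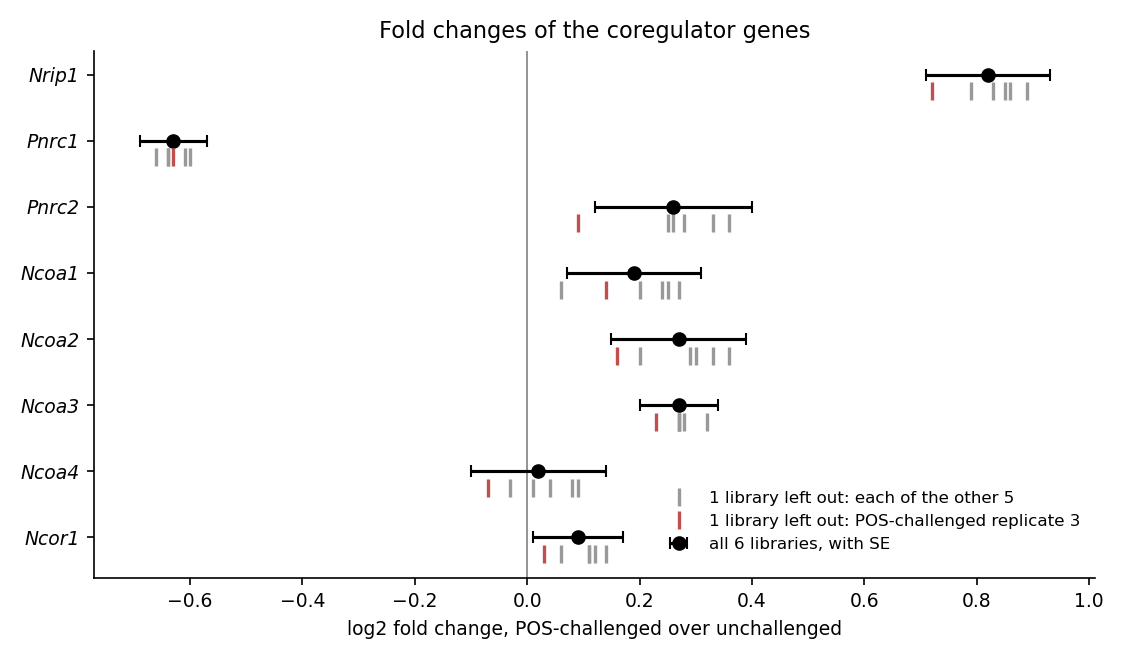
Log2 fold changes (horizontal axis, POS-challenged over unchallenged) of the 8 coregulator genes, with black points and SE bars for all 6 libraries and ticks for fits that left out 1 library, red for challenged replicate 3. Pnrc1 stays between -0.66 and -0.60, while Pnrc2 drops to 0.09 without the library in red.

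Of the 8 members, 1 (Pnrc1, lower) passed an adjusted p of 0.05 in limma, in a table where 0.0637% of all genes were called higher, 0.0319% lower and 0.0956% in either direction. In the authors' deposited table, of the 8, 2 passed at the same threshold, Nrip1 higher and Pnrc1 lower, in a table where 0.871% of the 12056 genes with an adjusted p were higher, 1.68% lower and 2.55% either. The groups did not overlap for 4 of the 8 members (Nrip1, Pnrc2 and Ncoa3 above, Pnrc1 below), against 20.0% of all genes, 9.56% above and 10.4% below. Since Nrip1 and Pnrc1 were known to differ when the members were chosen, nothing is read from these counts. The same holds for the calls of both genes, with all libraries or with 1 left out. The call of Pnrc1 in limma held when unchallenged replicate 2 or challenged replicate 3 was left out, and not without any 1 of the other 4 libraries. Nrip1 passed in limma only in the fit without challenged replicate 3, among the fits that left out 1 library.

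Per kilobase of exon, a scale on which genes of different length can be compared, the members spanned about an order of magnitude. In challenged cells Pnrc2 came at 982 ± 211 normalized counts per kilobase, Pnrc1 at 849 ± 32.3, Ncor1 at 481 ± 37.6, Ncoa1 at 225 ± 15.2, Ncoa3 at 176 ± 11.8, Ncoa2 at 158 ± 22.9, Nrip1 at 128 ± 16.8 and Ncoa4 at 89.2 ± 10.1 (SD, n = 3 each). In unchallenged cells the order was Pnrc1 at 1315 ± 26.2, Pnrc2 at 807 ± 15.8, Ncor1 at 451 ± 20.2, Ncoa1 at 198 ± 30.4, Ncoa3 at 145 ± 1.30, Ncoa2 at 130 ± 11.7, Ncoa4 at 87.7 ± 6.79 and Nrip1 at 72.1 ± 3.05. Hence 2 pairs of neighbours stood in the opposite order by their means. Nrip1 lay above Ncoa4 in all 3 challenged libraries and below it in all 3 unchallenged ones. Pnrc2 lay below Pnrc1 in all 3 unchallenged libraries and above it in all 3 challenged ones, but clearly so only in challenged replicate 3. The challenged ranges were 840 to 1225 for Pnrc2 and 815 to 879 for Pnrc1, and counting error alone amounts to 2.41% and 2.38%. In the other challenged libraries their order therefore depends on the exon lengths used. The ranges of neighbouring members overlapped in challenged cells between Pnrc2 and Pnrc1, between Ncoa3 and Ncoa2 and between Ncoa2 and Nrip1, and in unchallenged cells between none. The exon lengths are those of GENCODE and may differ from the annotation in which the reads were counted.

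Ratios of members within a library do not depend on how the libraries were scaled, and 5 pairs, chosen after their values were seen, were compared this way. The log2 ratio of Nrip1 to Pnrc1 was -0.58, -0.52 and -0.24 in challenged replicates 1, 2 and 3, against -1.89, -1.95 and -1.86 in unchallenged replicates 1, 2 and 3. That is a difference of 1.45 in log2 units, from means of -0.45 ± 0.18 and -1.90 ± 0.05 (SD, n = 3 each). The log2 ratio of Pnrc1 to Pnrc2 was -0.22, -0.26 and -0.74 in the challenged libraries, against 0.49, 0.49 and 0.48 in the unchallenged ones. Counting error alone amounts to 2.38% of the mean for Pnrc1 and 2.41% for Pnrc2, so nothing is read from how close the unchallenged values lie. In the challenged group challenged replicate 3 stood apart (difference -0.89, and -0.73 without that library). Nrip1 relative to the scaffold Ncor1 averaged -2.38 ± 0.07 in challenged and -3.11 ± 0.12 in unchallenged libraries, a difference of 0.73 in log2 units. For Nrip1 relative to Ncoa1 the means were -0.68 ± 0.11 and -1.31 ± 0.28, and for Ncoa3 relative to Ncor1 they were -2.02 ± 0.03 and -2.20 ± 0.06. In all 5 pairs the groups did not overlap, but no share over all pairs of genes was taken, so nothing is read from that count. These ratios come from the same comparison as the choice of members and are given as a description.

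**Figure D3:**
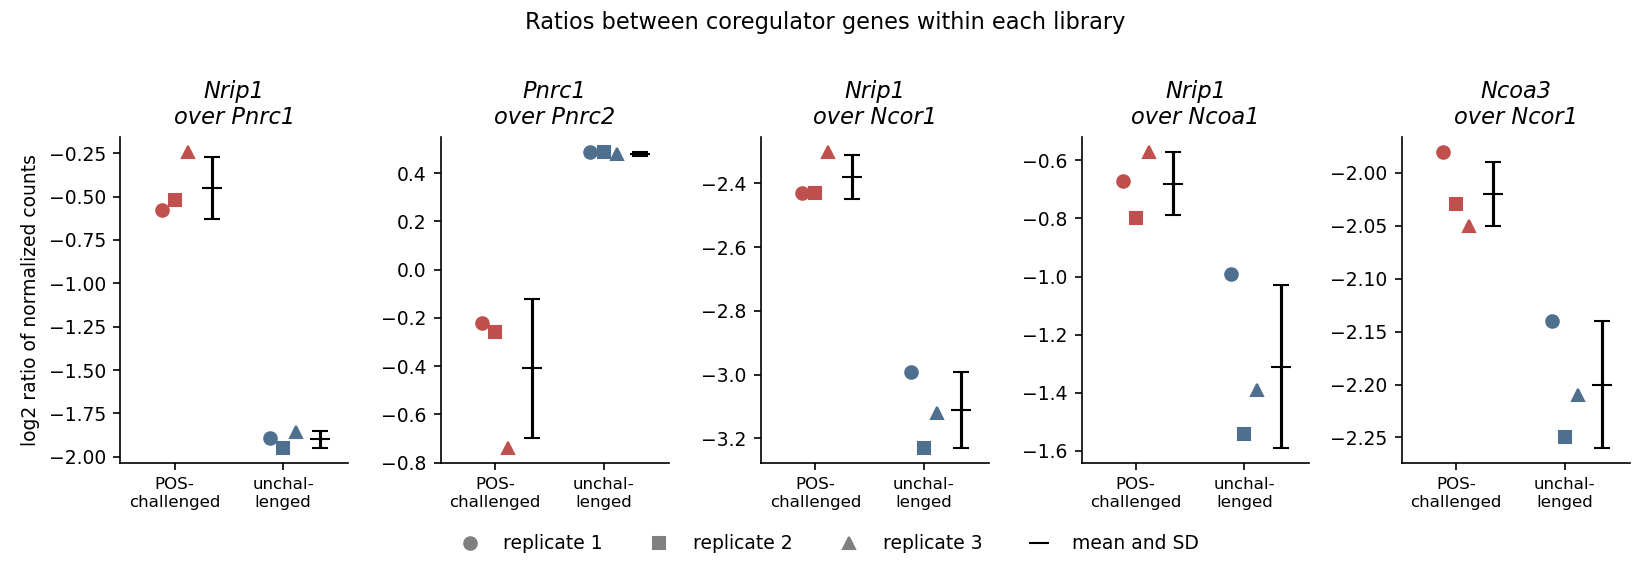
Log2 ratios of 1 coregulator gene to another within each library (vertical axes, which differ between panels and do not start at 0), for 3 POS-challenged and 3 unchallenged libraries, with black bars for the mean and SD. The ratio of Nrip1 to Pnrc1 lies between -0.58 and -0.24 in challenged and between -1.95 and -1.86 in unchallenged libraries.

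Genes with a pattern like that of Nrip1 and Pnrc1 were ranked by Pearson's r of log2(value + 1) over the 6 libraries, among 10242 other genes with a mean of at least 100. All 6 points of each gene share the libraries and their scaling, so r is a description only, and since likeness to a gene that differs between the groups picks genes that differ too, no test of these genes is given. Closest to Nrip1 were Mief2 (r = 0.9947), Bag4 (0.9925), 2810474O19Rik (0.9911), Rnf8 (0.9910) and Acads (0.9904). Mief2 codes for a mitochondrial fission adaptor and Acads for the short-chain acyl-CoA dehydrogenase of fatty acid oxidation. The difference between groups was smaller in these genes than in Nrip1, with log2 fold changes of 0.35, 0.34, 0.70, 0.25 and 0.25. The largest, 2810474O19Rik, stood at 1818 ± 244 in challenged and 1113 ± 76.8 in unchallenged cells.

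Closest to Pnrc1 were Sytl4 (r = 0.9920), Ccng2 (0.9906), C330007P06Rik (0.9864), Hmcn2 (0.9842) and Rsrp1 (0.9840). Ccng2, the gene of cyclin G2, had 1259, 1163 and 1132 normalized counts in challenged replicates 1, 2 and 3, and 1873, 1752 and 1865 in unchallenged replicates 1, 2 and 3. Its log2 fold change of -0.63 ± 0.07 (SE) was the same as that of Pnrc1 to 2 decimals. Hmcn2, which codes for a hemicentin of the extracellular matrix, stood at 145 ± 6.03 in challenged and 318 ± 17.9 in unchallenged cells (SD, n = 3 each), a log2 fold change of -1.13. Sytl4, C330007P06Rik and Rsrp1 had log2 fold changes of -0.17, -0.12 and -0.31.

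The other coactivators were close to the background. Of 27 listed genes 24 were measured, with a median log2 fold change of 0.02, against 0.007 over all genes, and 13 positive and 11 negative. In limma, edgeR, DESeq2 and the authors' deposited table, of the 24, 0 passed, and 1 had an unadjusted limma p under 0.05, as had 1438 of all 12556 genes. When 1 library was left out, the median ran from -0.009 to 0.10. Its most abundant members were Ddx17, an RNA helicase coactivator, at 17717 ± 387 in challenged and 18509 ± 486 in unchallenged cells, Calcoco1 at 5519 ± 238 and 5588 ± 93.2, and the mediator-associated Thrap3 at 4972 ± 887 and 4835 ± 198 (SD, n = 3 each). Their limma adjusted p were 0.746, 0.929 and 0.954. With quantile normalization the log2 fold changes of Ddx17 and Calcoco1 were 0.07 each, with the sign turned from -0.06 and -0.02. The remaining Ncoa genes, Ncoa5, Ncoa6 and Ncoa7, named because they share the family name and not by the rule for naming genes, had log2 fold changes of -0.10, 0.17 and -0.02 (limma adjusted p = 0.734, 0.452 and 0.968).

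Corepressor complexes had 23 of 27 listed genes measured, a median log2 fold change of 0.04 and 14 positive against 9 negative. The median ran from 0.004 to 0.08 when 1 library was left out. In limma and edgeR 0 passed and 2 of the 23 had an unadjusted limma p under 0.05, against 1438 of the 12556 genes in all, while 1 was higher and 1 lower both in the authors' deposited table and in DESeq2 on recovered reads. The higher one was Spen, a large corepressor that binds the Notch effector RBPJ and histone deacetylase complexes, with 5217, 5605 and 6431 normalized counts in challenged replicates 1, 2 and 3, and 4126, 4571 and 4207 in unchallenged replicates 1, 2 and 3. Its log2 fold change was 0.41 ± 0.09 (SE), with adjusted p of 0.240 in limma, against 0.0128 in the authors' deposited table. The lower one was Bcl6, a zinc finger repressor that recruits the Ncor1 complex, at 1162 ± 46.4 in challenged and 1452 ± 71.5 in unchallenged cells (SD, n = 3 each; log2 fold change -0.32, adjusted p 0.240 in limma, against 0.0272 in the authors' deposited table). In both genes the groups did not overlap.

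Of the receptors that these proteins serve, the 3 retinoic acid receptors were higher in challenged cells in the authors' deposited table. Of 38 nuclear receptor genes 28 were measured, with a median log2 fold change of 0.10 and with 22 of the 28 positive, where 51.7% of all genes were positive. The median ran from 0.04 to 0.15 when 1 library was left out, lowest without unchallenged replicate 1. An unadjusted limma p under 0.05 was found for 8 of the 28, against 1438 of all 12556 genes. The list was chosen with earlier results of these data known, so its counts are a description. In limma 1 passed, Rarb, and the authors' deposited table called 3, Rarb, Rara and Rarg, all higher. Rarb had 1488, 1262 and 1125 normalized counts in challenged replicates 1, 2 and 3, and 366, 414 and 473 in unchallenged replicates 1, 2 and 3 (log2 fold change 1.62, limma adjusted p = 0.0203). Rara stood at 1286 ± 94.3 in challenged and 971 ± 22.5 in unchallenged cells, and Rarg at 1323 ± 52.0 and 1054 ± 9.25 (SD, n = 3 each). Their log2 fold changes were 0.40 and 0.33, with limma adjusted p of 0.214 and 0.228 and, in the authors' deposited table, 0.00644 and 0.0117. Challenged values lay above unchallenged ones without overlap in 8 of the 28 and below in 1, where 9.56% of all genes lay above and 10.4% below. That 1 was Nr3c1, the glucocorticoid receptor gene, named after its values were seen, at 4168 ± 192 and 4953 ± 195 (log2 fold change -0.25, limma adjusted p = 0.283).

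Genes known to respond to retinoic acid were set beside Nrip1, in a list made with earlier results of these data known, so their direction is no independent support. Of 14 listed 9 were measured, with a median log2 fold change of 0.19 and 6 positive. Without unchallenged replicate 1 the median was 0.11, without unchallenged replicate 2 it was 0.34, without unchallenged replicate 3 it was 0.39, and without challenged replicate 3 it was 0.29. Rarb is on this list and on that of the receptors. An unadjusted limma p under 0.05 was found for 5 of the 9, against 1438 of all 12556 genes. In limma 2 passed after adjustment, both higher. These were Rarb and Cyp26b1, whose product degrades retinoic acid, at 669 ± 123 in challenged and 231 ± 16.6 in unchallenged cells (SD, n = 3 each; log2 fold change 1.52, limma adjusted p = 0.0278). The authors' deposited table called 4 higher, adding Dhrs3, a retinaldehyde reductase gene, and Hic1, a transcriptional repressor gene. Dhrs3 stood at 1234 ± 250 and 484 ± 79.8, and Hic1 at 414 ± 37.1 and 222 ± 18.3, with log2 fold changes of 1.34 and 0.89 (limma adjusted p = 0.0774 each). Rarres2, which codes for the secreted protein chemerin, had the opposite sign. It had 1316, 1482 and 818 normalized counts in challenged replicates 1, 2 and 3, and 2939, 1609 and 1865 in unchallenged replicates 1, 2 and 3, without overlap of the groups. Its log2 fold change was -0.82, with adjusted p of 0.371 in limma, against 0.0667 in the authors' deposited table. Nrip1 was highest in challenged replicate 3, as were 31.0% of all genes. A cause shared by Nrip1 and the genes of this list was not tested. Rarb and Cyp26b1 were highest in challenged replicate 1. In limma both lost their call without challenged replicate 1, challenged replicate 2, unchallenged replicate 1 or unchallenged replicate 3, with log2 fold changes of 1.52 to 1.72 for Rarb and 1.37 to 1.58 for Cyp26b1 in those fits. Under a replicate block their adjusted p in limma were 0.200 and 0.103.

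The partners of Pnrc2 and Ncoa4 in their other roles were also examined. Of 16 listed genes of decapping and nonsense-mediated decay 15 were measured, with a median log2 fold change of 0.01 (-0.06 to 0.04 when 1 library was left out), and 0 passed in limma, edgeR, DESeq2 or the authors' deposited table, nor did any have an unadjusted limma p under 0.05. Ddx6, a decapping helicase, stood at 7083 ± 384 in challenged and 7574 ± 376 in unchallenged cells, the kinase gene Smg1 at 7016 ± 579 and 7320 ± 279, and Upf1, the central helicase of nonsense-mediated decay, at 3671 ± 231 and 3758 ± 181 (SD, n = 3 each; limma adjusted p = 0.628, 0.777 and 0.880). All 14 listed genes of ferritinophagy and iron handling were measured, with a median log2 fold change of -0.04, which was 0.03 with quantile normalization. Of these 4 were positive and 10 negative. Challenged values lay below unchallenged ones without overlap in 3 and above in 0, where 10.4% of all genes lay below and 9.56% above. In limma and edgeR 0 passed, 1 had an unadjusted limma p under 0.05, and 1 was lower in the authors' deposited table and in DESeq2. That was Slc40a1, the iron exporter ferroportin, with 357, 300 and 267 normalized counts in challenged replicates 1, 2 and 3, and 760, 358 and 541 in unchallenged replicates 1, 2 and 3. Its log2 fold change was -0.79 ± 0.26 (SE), with adjusted p of 0.359 in limma, against 0.0483 in the authors' deposited table. It was -0.52 without unchallenged replicate 1 and -0.23 without unchallenged replicates 1 and 3, and the highest challenged value lay next to the lowest unchallenged one.

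Ferritin heavy chain, the cargo of Ncoa4, was abundant. Fth1 had 24238, 23651 and 19027 normalized counts in challenged replicates 1, 2 and 3, and 29031, 24327 and 27585 in unchallenged replicates 1, 2 and 3, so that the challenged libraries lay just below the unchallenged ones (log2 fold change -0.28, limma adjusted p = 0.450). The light chain gene Ftl1 stood at 15440 ± 593 in challenged and 14608 ± 510 in unchallenged cells (SD, n = 3 each). Its groups overlapped, with the opposite sign (log2 fold change 0.08, limma adjusted p = 0.682). Ferritin genes have processed pseudogenes, so these values are uncertain. Hmox1, which codes for heme oxygenase and releases iron from heme, stood at 64151 ± 1011 in challenged and 70512 ± 875 in unchallenged cells (SD, n = 3 each). Its groups did not overlap (log2 fold change -0.14, limma adjusted p = 0.602), and with quantile normalization its log2 fold change was 0.03.

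**Figure D4:**
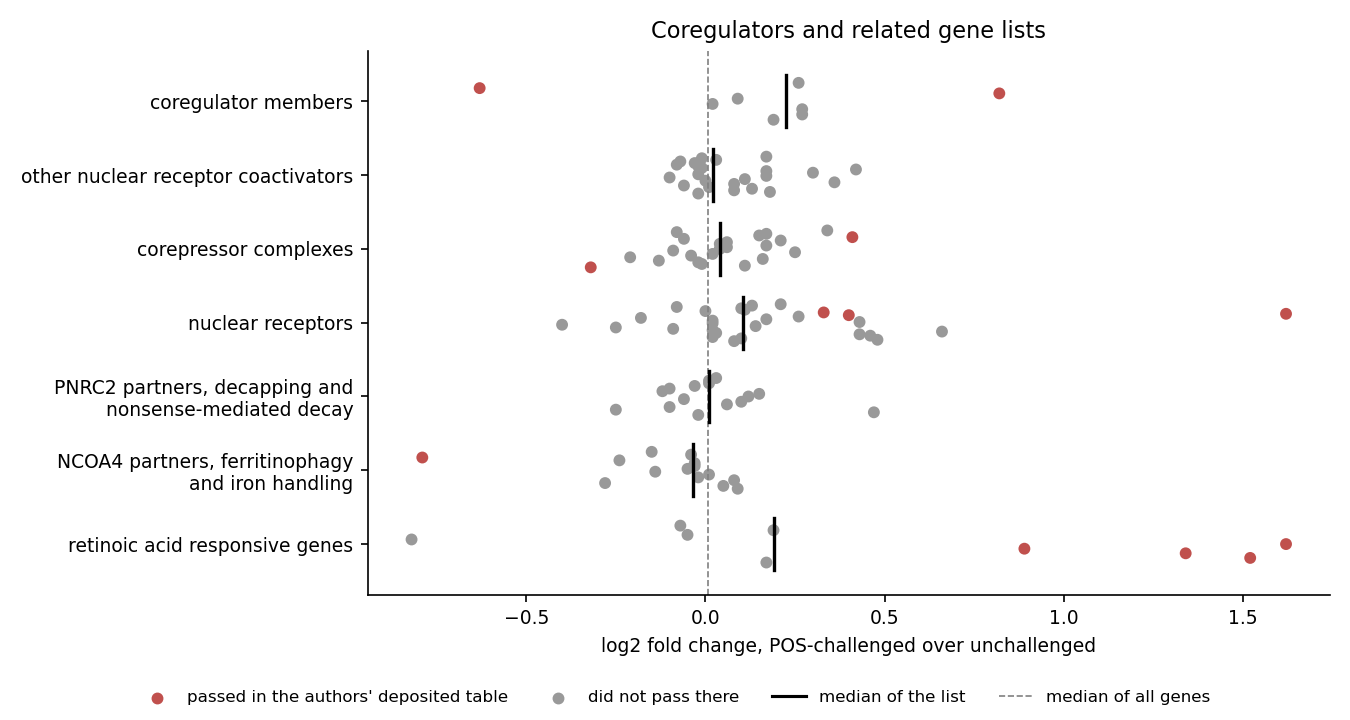
Log2 fold changes (horizontal axis, POS-challenged over unchallenged) of each measured gene of the coregulator members and of 6 related lists, spread vertically for legibility, with red points for genes that passed in the authors' deposited table and black lines for list medians. Medians of the other coactivators (0.02), corepressors (0.04) and decay genes (0.01) lie near that of all genes (0.007, dashed).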

How the data were processed

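Poly(A) RNA of 3 POS-challenged and 3 unchallenged RPE cultures was sequenced, each library on 2 lanes of a Genome Analyzer, per the labels' protocols. GSNAP, DESeq2 and the build mm10 are named in the submitters' processing notes; versions, annotation, counting tool and strand use are unstated in the sources at hand. The authors deposited a signal for each gene and library, and per the values it is a read count divided by 1 size factor for each library (0.901 to 1.103): 100% of the values in each library came out as whole reads (within 0.001). The authors deposited a log2 fold change with its error, a score (the Wald statistic) and p-values too. No gene in the table had fewer than 87 reads in sum, so genes below that were not analysed here. Listed genes without values, such as Ddx5, were not analysed either, and the reason for their absence was not tested.

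The members and gene lists were chosen with earlier results of these data known. The values were tested with limma 3.58.1 (R 4.3.3, trend, log2(value + 1), minimum mean 10, which removed no gene, no covariate) over all 12556 genes, with Benjamini-Hochberg adjustment at 0.05; the fit had 4 residual and 3.22 prior degrees of freedom. Counts within the lists are descriptions, with no set test. An exact permutation test of 3 against 3 was not used. Replicates differed by more than sampling noise (chi-square per degree of freedom 8.58 to 61.8), and p-values measure the spread between these libraries. Alternatives were pseudocounts of 0.1 and 5, quantile and TMM scaling, a minimum mean of 100 and none, leaving out each library, a replicate block, edgeR 4.0.16 and DESeq2 1.42.0 on recovered reads, and the authors' deposited table; a fit without unchallenged replicates 1 and 3 was added after seeing the data. Scripts were tested on simulated data. Named were all members, up to 4 genes of each list that passed in limma and up to 4 in the authors' table, filled to 3 by abundance, and 5 genes most like Nrip1 and Pnrc1 each; 1 gene that this rule names is not reported here. Exceptions, chosen after their values were seen, are Ncoa5, Ncoa6, Ncoa7, Nr3c1, Rarres2, Ftl1, Sulf2 and the cell type markers. Exon lengths came from GENCODE M21 and promoters and coordinates from RefSeq (GRCm38.p6, the build mm10 denotes); 12346 identifiers matched RefSeq and 11931 had a length, and 6 of 8 members had a promoter window.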

Additional observations from a re-analysis of the deposited data

How the results depend on the processing

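The signs of the fold changes of Nrip1, Pnrc1, Pnrc2, Ncoa1, Ncoa2, Ncoa3 and Ncor1 held in all 17 alternatives run for each, and that of Ncoa4 turned in 4 of them. Calls depended on the test. Over all genes limma called 8 higher and 4 lower; DESeq2 on recovered reads called 105 and 224, and the authors' deposited table called 105 and 203. Those 2 each called 1 member higher (Nrip1) against 0 in limma and in edgeR. Nrip1 was chosen by its fold change in this comparison, so its calls are a description. When 1 library was left out, the genes higher ran from 1 to 12, those lower from 0 to 108, the members higher from 0 to 1 and the members lower from 0 to 1. Without unchallenged replicates 1 and 3, which leaves 1 unchallenged library that is assumed to vary like the others, 0 genes were higher, 0 lower and 0 members lower. The median of the ferritinophagy list was 0.03 with quantile normalization against -0.04; the cause was not tested. With the replicate number as a block, 1 gene was higher, 0 lower and 0 members lower. Same-numbered libraries did not deviate together in every pair (correlations -0.351, 0.172 and 0.173). Challenged replicates 1 and 3 correlated best with unchallenged replicates 2 and 1 (0.392 and 0.315). Challenged replicate 2 correlated best with unchallenged replicate 2 (0.172). Deviations from a mean of only 3 libraries are tied to each other, so these values cannot show whether the numbers pair the libraries. With 3 libraries in each group, the groups overlapped for Ncoa1, Ncoa2, Ncoa4 and Ncor1.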
